A study of Mus musculus with 3 samples.

Results

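The complement genes described here are 31 genes chosen by symbol from the 32285 genes listed in each count matrix of a mouse artery injury study. They encode the parts of the C1 complex and the classical route (C1qa, C1qb, C1qc, C1ra, C1s1, C1rl, C2, C4b), lectin-route genes (Masp1, Colec12), C3 and the alternative route (Cfb, Cfd, Cfp), terminal components (C6, C7), receptors (C3ar1, C5ar1, C5ar2, Cr2, Vsig4, Itgam, Itgax, Itgb2, Cd93) and regulators (Serping1, Cd55, Cd59a, Cd46, Cr1l, Clu). All 31 were found by symbol and all had UMIs (unique molecular identifiers, each standing for 1 captured transcript). The study profiled single cells from femoral arteries of wild-type male mice aged 8 weeks, with no strain stated in the labels. A library came from sham-operated mice, one from mice 2 days after wire injury (D2) and one from mice 7 days after it (D7). No harvest time is given for the sham operation. Each library pools sorted living cells of 6 mice, so each group is 1 library and mice cannot be told apart within it.

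Complement is a set of plasma and cell-surface proteins that tag microbes, dying cells and debris. The classical route starts when C1q binds its target and the attached proteases C1r and C1s cleave C4 and C2, the lectin route starts from sugar-binding collectins and MASP proteases, and the alternative route amplifies through C3, factor B, factor D and properdin. The routes meet at C3, whose fragments act through receptors on leukocytes, and host cells carry inhibitors that halt the cascade. Liver makes most circulating complement, while macrophages are a known main source of C1q and connective tissue fibroblasts are known to express C1r, C1s, C3, C4 and C7.

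With 1 library per group there is no spread between replicates and no test. Levels are given as CPM, counts per 1e6, the gene's UMIs scaled to the sum of UMIs over all cells of a class in a library, with exact Poisson 95% intervals. Shares have exact Clopper-Pearson intervals and ratios have exact conditional binomial intervals. All of these cover counting error only, not the variation between mice or preparations. A gene was called apart between 2 libraries where the higher one held at least 50 CPM and 20 UMIs and the ratio of (CPM + 1) was at least 2. Library-level values mix the number of cells of a type with the RNA in each cell, and these cannot be told apart there.

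The libraries kept 7346 sham, 11001 D2 and 10983 D7 cells, with medians of 4080, 6626 and 6777 UMIs per cell. Clusters were built without the 31 genes, and classes were named from markers. Each class had most of its markers highest in itself, from all 11 for fibroblast-like cells and all 13 for T/NK/ILC-like cells to 9 of 12 for monocyte/macrophage-like cells. Of 38 clusters, 6 stayed unnamed. Class sizes differed widely between libraries: fibroblast-like cells numbered 2003 in sham, 84 in D2 and 2810 in D7, monocyte/macrophage-like cells 971, 4309 and 2748, and neutrophil-like cells 148, 4514 and 1597. From 21 to 29 cell barcodes were shared between each pair of libraries.

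The promoters of 4 genes are shown because these carry the 2 main patterns described below. C1qb and C1qc encode chains of C1q, which were held mostly by monocyte/macrophage-like cells, and C3 and C7 were components at least 2-fold lower than sham over all fibroblast-like cells of each injury library. Each runs from 250 bases before to 50 bases after the start of the gene, 5′ to 3′ on the gene's strand, from RefSeq on GRCm38.p6. All 4 genes lie on the minus strand. The windows are chr4:136886151-136886450 for C1qb, chr4:136892865-136893164 for C1qc, chr17:57228087-57228386 for C3 and chr15:5063724-5064023 for C7. Capitals mark a match to GAGGAAGT on the opposite strand in C1qc, the letters searched for the myeloid factor PU.1, and a match to TTCNNNGAA in C7, the letters searched for STAT factors.
C1qb: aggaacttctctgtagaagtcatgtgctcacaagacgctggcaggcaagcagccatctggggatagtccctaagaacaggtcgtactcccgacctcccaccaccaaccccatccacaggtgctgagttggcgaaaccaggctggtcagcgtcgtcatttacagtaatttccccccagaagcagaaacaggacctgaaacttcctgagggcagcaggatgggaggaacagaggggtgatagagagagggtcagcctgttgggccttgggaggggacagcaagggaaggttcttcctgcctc
C1qc: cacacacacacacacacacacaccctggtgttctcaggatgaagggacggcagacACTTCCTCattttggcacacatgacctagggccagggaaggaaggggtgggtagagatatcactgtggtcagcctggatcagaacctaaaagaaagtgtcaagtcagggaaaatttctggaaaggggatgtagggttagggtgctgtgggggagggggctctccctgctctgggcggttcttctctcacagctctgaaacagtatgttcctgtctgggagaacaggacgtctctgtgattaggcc
C3: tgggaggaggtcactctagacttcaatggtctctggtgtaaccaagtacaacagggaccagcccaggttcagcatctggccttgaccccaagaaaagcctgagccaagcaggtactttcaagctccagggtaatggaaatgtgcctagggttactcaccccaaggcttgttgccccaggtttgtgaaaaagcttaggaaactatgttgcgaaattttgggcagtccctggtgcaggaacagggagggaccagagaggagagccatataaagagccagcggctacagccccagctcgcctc
C7: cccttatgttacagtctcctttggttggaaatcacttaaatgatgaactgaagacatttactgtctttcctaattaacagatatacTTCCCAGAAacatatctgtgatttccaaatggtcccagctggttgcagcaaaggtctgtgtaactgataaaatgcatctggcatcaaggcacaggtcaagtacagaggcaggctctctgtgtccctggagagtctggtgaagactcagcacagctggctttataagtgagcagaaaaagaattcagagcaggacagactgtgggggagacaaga

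The RefSeq table matched 21 of the 31 genes. C1qa, C2, C4b, Masp1, Colec12, Cfb, Itgb2, Cd93, Serping1 and Clu were not among them. Both strands were searched and the motifs were counted separately. TTCNNNGAA was found in 2 of the 21 genes, C1ra and C7, or 9.52%, beside 9.55% of 27025 genes. The motif searched for interferon-stimulated response elements (TTTC, any 2 bases, TTTC) was found in Cd59a and Cd46, 9.52% of the 21 beside 3.99% of all genes. GAGGAAGT was found in C1qc alone, 4.76% beside 3.69%. A match is a description of letters in the window, and none of these shares is read as a site.

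**Figure D1:**
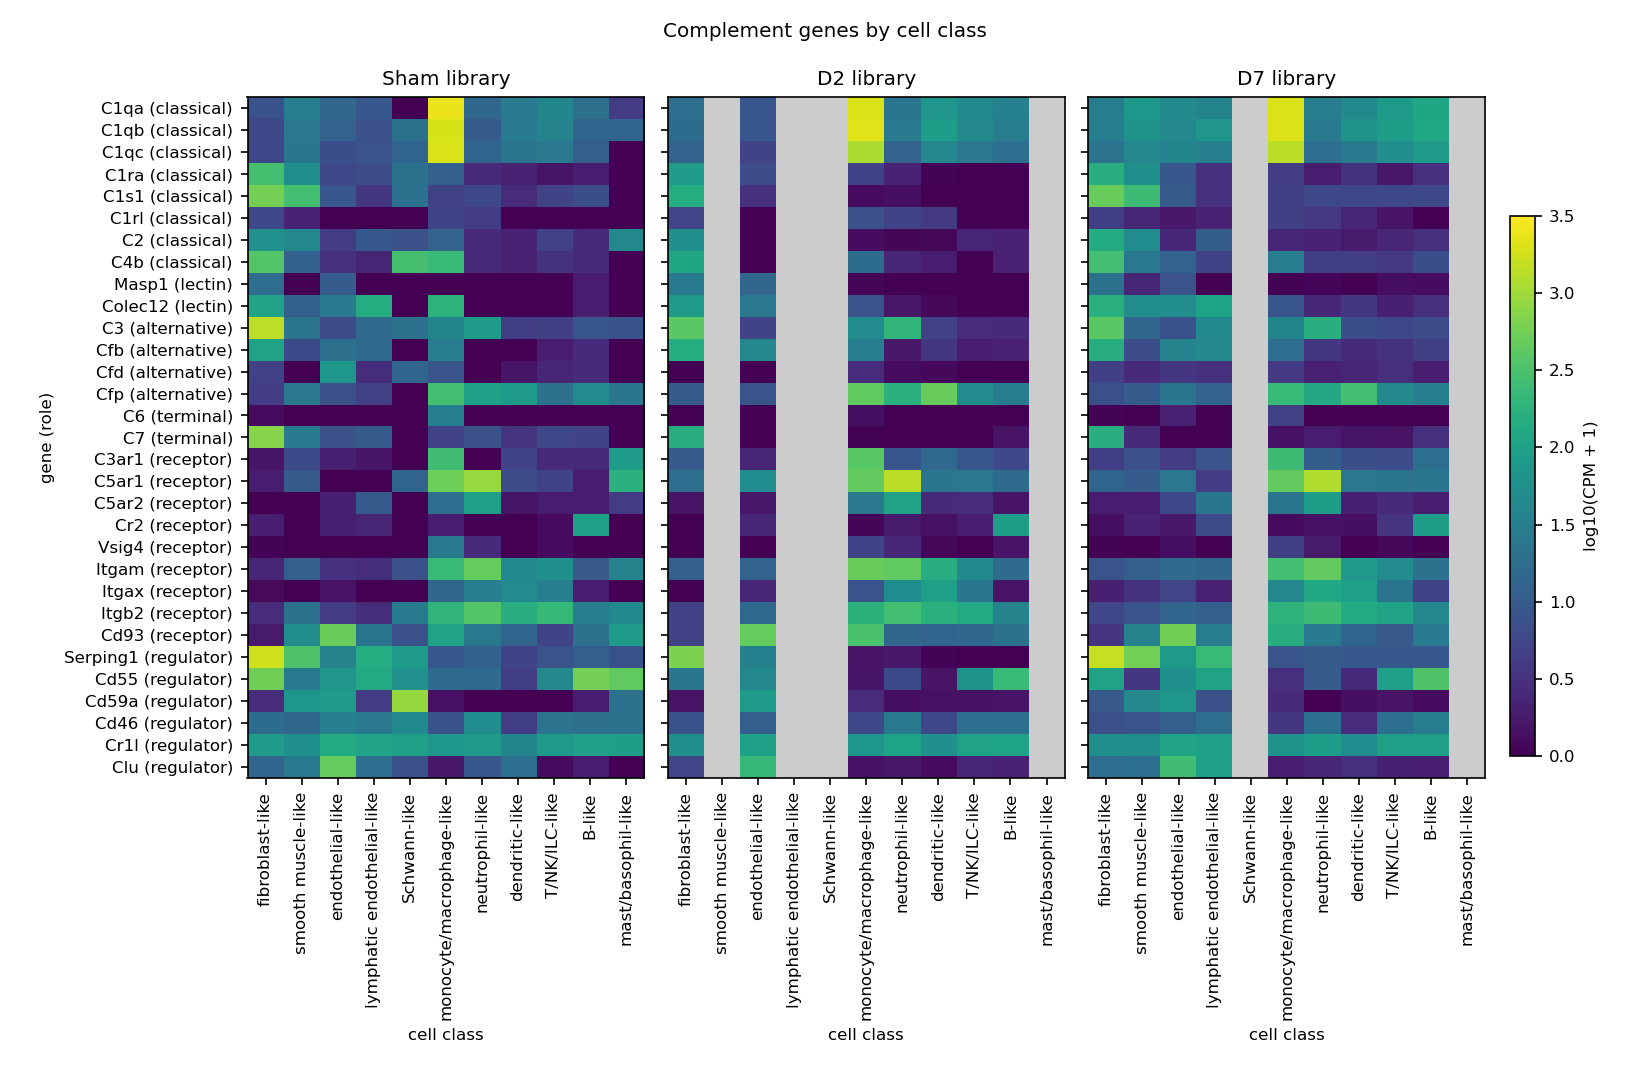
Level of each of the 31 complement genes, as log10(CPM + 1), in 11 cell classes (columns) of the sham, D2 and D7 libraries (panels); grey columns are classes with under 50 cells in that library. The C1q genes stand out in the monocyte/macrophage-like column of each library, and C3, Serping1, C1s1 and C4b in the fibroblast-like column.

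The C1q chains were the complement transcripts of the macrophages. C1qa, C1qb and C1qc encode the subunits of the recognition molecule that starts the classical route. In monocyte/macrophage-like cells C1qa stood at 2529 CPM (2491 to 2568) in sham, 2021 (2008 to 2033) in D2 and 1999 (1982 to 2017) in D7. C1qb stood at 1939, 2178 and 2048 CPM. C1qc stood at 2022, 1174 and 1378 CPM. C1qa and C1qc were therefore highest in the sham library, while C1qb was highest in D2. The 3 chains summed to 6490 CPM in sham, 5372 in D2 and 5425 in D7, a D2 to sham ratio of 0.828 (0.819 to 0.836) and a D7 to sham ratio of 0.836 (0.827 to 0.845). Neither reached the 2-fold threshold.

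This class held 90.3% of all C1qa UMIs in sham, 96.6% in D2 and 81.7% in D7. Over the whole library C1qa stood at 484, 1131 and 627 CPM, so the D2 library was highest at that level although the level within the class was not. After each cell was thinned to 1000 UMIs, C1qa was detected in 65.5%, 57.5% and 49.1% of monocyte/macrophage-like cells. In B-like cells, which should lack the gene, it was detected in 1.08%, 3.29% and 2.21%, at median depths before thinning of 4114.5, 4565.5 and 3509 UMIs beside 7013, 11210 and 7913 in the macrophage class. Unthinned, C1qa was found in 5.71%, 10.8% and 5.56% of B-like cells.

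The make-up of the C1q sum differed between libraries. C1qa gave 39.0% of it in sham, 37.6% in D2 and 36.9% in D7. C1qb gave 29.9%, 40.5% and 37.7%, and C1qc gave 31.2%, 21.9% and 25.4%. The share of C1qb was thus lowest in sham and that of C1qc highest in sham. The 3 genes lie side by side on chromosome 4 on GRCm38, C1qb at chr4:136880129-136886187, C1qc at chr4:136889804-136893065 and C1qa at chr4:136895917-136898803.

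Different clusters held the monocyte/macrophage-like class in each library. A cluster led by Cd163 and Fcna, genes known from resident macrophages, held 731 of the 971 sham cells (75.3%), 19 D2 cells (0.441%) and 142 D7 cells (5.17%). Within it C1qa stood at 3250 CPM in sham and 3561 in D7, a ratio of 1.1 (1.06 to 1.14). C1qb stood at 2457 and 2897, a ratio of 1.18 (1.13 to 1.23), and C1qc at 2607 and 2747, a ratio of 1.05 (1.01 to 1.1). Within that cluster all 3 chains were at least as high in D7 as in sham, unlike C1qa and C1qc over the whole class.

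A cluster led by Pf4 and Arg1 held 1874 D2 and 912 D7 cells. C1qa stood there at 2410 and 2762 CPM, C1qb at 2494 and 2747, and C1qc at 1440 and 1962. Its D7 to D2 ratio was largest for C1qc among the chains, at 1.36 (1.34 to 1.39). A cluster led by Cx3cr1, the fractalkine receptor gene, had C1qa at 344 CPM over 50 sham cells, 2148 over 1261 D2 cells and 2143 over 614 D7 cells. An interferon-gene cluster had C1qa at 2168 CPM over 239 D2 cells and 1404 over 109 D7 cells.

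The cluster led by Ly6c2 and Chil3, genes of inflammatory monocytes, had little C1q in sham. C1qa stood there at 7.15 CPM over 142 sham cells, 394 over 567 D2 cells and 64.6 over 557 D7 cells. C1qb stood at 4.47, 631 and 135 CPM and C1qc at 1.79, 266 and 54.5. All 3 chains were therefore highest in D2 and between the other libraries in D7. For comparison, C1qa stood at 33.9 CPM in D2 B-like cells and 117 in D7 B-like cells, where 3 cells held 189 of its 360 UMIs.

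**Figure D2:**
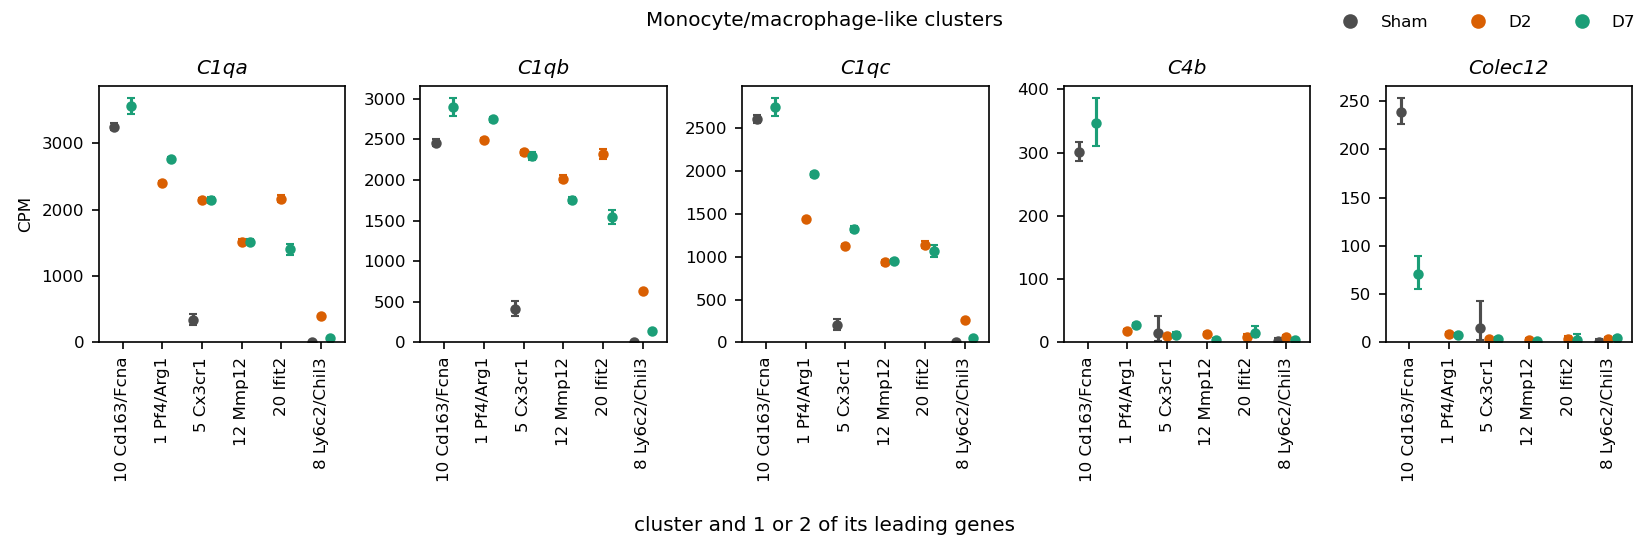
CPM of C1qa, C1qb, C1qc, C4b and Colec12 in 6 monocyte/macrophage-like clusters (x axis, with leading genes), coloured by library; points are sums over a cluster's cells in 1 library, bars are exact Poisson 95% intervals, and a cluster is plotted for a library only where it has at least 50 cells there. Of the clusters plotted, C4b and Colec12 pass 50 CPM only in the Cd163/Fcna cluster, where Colec12 is 239 CPM in sham and 70.9 in D7.

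C1q UMIs were also found in lymphocytes, dendritic-like and stromal classes, along with macrophage marker RNA. The B-like level of C1qa was 18.4 CPM in sham, 33.9 in D2 and 117 in D7, with 189 of the 360 D7 UMIs in the top 3 cells. The 12 macrophage markers summed to 211, 420 and 1200 CPM in those cells, with 10, 12 and 12 of 12 detected. In T/NK/ILC-like cells C1qa stood at 39.1, 45.5 and 79.5 CPM, and the marker sum at 1006, 743 and 1098. These low C1q levels moved with macrophage markers in B-like cells, and the part of that RNA in them was not tested.

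The proteases of the C1 complex were fibroblast transcripts. C1ra and C1s1 encode the serine proteases that C1q activates. In fibroblast-like cells C1ra stood at 293 CPM (284 to 302) in sham, 85.7 (72.8 to 100) in D2 and 161 (157 to 165) in D7. C1s1 stood at 586 (573 to 598), 145 (128 to 163) and 485 (478 to 492). Both were highest in sham and lowest in D2, with ratios to sham of 0.292 (0.248 to 0.343) and 0.247 (0.218 to 0.279) at D2 and 0.55 and 0.828 at D7. Fibroblast-like cells held 88.3% of C1s1 UMIs in sham and 91.3% in D7. Smooth muscle-like cells, the contractile cells of the artery wall, had C1s1 at 283 CPM in sham and 249 in D7. C1rl, a C1r-like protease gene, stayed at or under 6.47 CPM in the class holding most of its UMIs.

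C4b and C2, which C1s cleaves to form the classical C3 convertase, differed from each other. Fibroblast-like C4b levels were 364, 116 and 287 CPM in library order (sham, D2, D7), a D2 to sham ratio of 0.32 (0.277 to 0.367). In D2, 103 of its 213 UMIs came from 3 cells. C2 stood at 58 CPM in sham, 54.6 in D2 and 140 in D7, and its D7 to sham ratio was 2.41 (2.24 to 2.6). Of the 31 genes, C2 alone was called higher in D7 than in sham in this class, beside 7.95% of all genes that reached the level.

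Macrophage C4b differed more: the monocyte/macrophage-like class had 227 CPM in sham, 16.5 in D2 and 29.3 in D7, 13.8-fold lower at D2 and 7.75-fold lower at D7. The Cd163/Fcna cluster had C4b at 301 CPM in sham and 347 in D7, a ratio of 1.15 (1.02 to 1.3). The class-level gap was thus not seen inside the cluster that held most sham macrophages. Schwann-like cells, the glia of nerve fibres, had C4b at 296 CPM over 50 sham cells and 318 over 41 D7 cells.

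Of the lectin-route genes, Colec12, a scavenger collectin of the cell membrane, stood at 111, 80.2 and 168 CPM in fibroblast-like cells. Its monocyte/macrophage-like level was 180 CPM (170 to 190), 7.14 (6.41 to 7.92) and 7.73 (6.67 to 8.9), ratios to sham of 0.0397 (0.0351 to 0.0447) at D2 and 0.0429 (0.0367 to 0.0501) at D7. Unlike C4b, Colec12 was also lower within the Cd163/Fcna cluster, at 239 CPM in sham and 70.9 in D7, a ratio of 0.296 (0.229 to 0.377). Smooth muscle-like cells had 11.3 CPM in sham and 53.2 in D7, a ratio of 4.7 (2.42 to 10.4). The lymphatic endothelial-like level was 146 CPM in sham and 105 in D7. Masp1, a protease of the lectin route, stood at 17.1, 26.7 and 19.4 CPM in fibroblast-like cells and stayed under 50 CPM there.

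C3, the component on which all routes converge, had most of its UMIs in fibroblast-like cells in sham and D7 and in neutrophil-like cells in D2. In fibroblast-like cells it stood at 1433 CPM (1413 to 1452) in sham, 398 (369 to 428) in D2 and 402 (396 to 408) in D7. The sham library stood above both injury libraries, whose intervals overlapped. The ratios to sham were 0.278 (0.258 to 0.299) at D2 and 0.281 (0.275 to 0.286) at D7. The D2 value rests on 729 UMIs, of which 334 came from 3 cells, and the mean of per-cell CPM gave a D2 ratio of 0.553 and a D7 ratio of 0.445. A stricter cell filter gave a D2 ratio of 0.537.

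Thinned to 1000 UMIs, C3 was detected in 63.7%, 29.8% and 28.2% of fibroblast-like cells, and in 86.2%, 69.0% and 67.8% before thinning, at median depths of 6729, 14915 and 13067.5 UMIs. B-like cells gave 1.08%, 0% and 0.39% after thinning. The share of C3-positive fibroblast-like cells was thus well above that of a class that should lack the gene in each library. Fibroblast-like cells held 93.7% of C3 UMIs in sham and 80.7% in D7.

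Neutrophil-like cells had C3 at 83.9 CPM (62.8 to 110) in sham, 200 (194 to 206) in D2 and 155 (146 to 165) in D7. The sham value rests on 53 UMIs. The D2 to sham ratio was 2.38 (1.82 to 3.19), the opposite direction to the fibroblast-like class. Neutrophil-like cells held 54.8% of all C3 UMIs in D2, where they numbered 4514 beside 84 fibroblast-like cells. Their C3 level in CPM was below that of fibroblast-like cells in D2. Thinned detection was 4.08%, 17% and 14%. Most sham neutrophil-like cells, 127 of 148, sat in 1 cluster led by Retnlg, where C3 stood at 79.6, 142 and 131 CPM, a D2 to sham ratio of 1.78 (1.29 to 2.52). The direction was the same inside that cluster and the size was under 2-fold.

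Of the alternative-route genes, Cfb, which supplies the protease of the alternative convertase, stood at 104, 146 and 150 CPM in fibroblast-like cells, and it was lowest in sham. Within the Cd163/Fcna macrophage cluster Cfb stood at 34.3 CPM in sham and 105 in D7, a ratio of 3.07 (2.38 to 3.94). Cfp encodes properdin, the stabiliser of that convertase, and was a myeloid transcript. In monocyte/macrophage-like cells Cfp stood at 282, 448 and 234 CPM. Inside clusters D7 was not lower than sham. Cfp stood at 356 CPM in sham and 367 in D7 in the Cd163/Fcna cluster, 107 and 229 in the Cx3cr1 cluster and 35.8 and 142 in the Ly6c2/Chil3 cluster. The dendritic-like level of Cfp was 84.4 CPM (71.2 to 99.3) in sham, 481 (468 to 494) in D2 and 283 (269 to 298) in D7, ratios to sham of 5.69 (4.83 to 6.76) and 3.36 (2.83 to 4.01). The cluster that held 137 of 146 sham dendritic-like cells had Cfp at 88.4, 510 and 332 CPM, so the same order stood inside it. Neutrophil-like cells had Cfp at 99.7, 170 and 128 CPM.

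Cfd, which encodes the factor D protease also known as adipsin from fat cells, was an adipocyte transcript. A cluster of 30 adipocyte-like cells, all from D7, had Cfd at 33422 CPM and held 98.5% of the library's Cfd UMIs. The same cells had Clu at 2694 CPM, C4b at 1927 and C3 at 1614. Elsewhere, endothelial-like cells had Cfd at 69.2 CPM in sham, 0 in D2 and 2.53 in D7, 27.4-fold lower at D7 and at least 32.8-fold lower at D2 when the D2 class is set at 3 UMIs. Most of that sham signal was in the endothelial-like cluster led by Ccdc85a and Aplnr, at 98.8 CPM. No adipocyte-like cluster was found in sham or D2.

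The terminal components C6 and C7 insert into the growing membrane attack complex. C7 was a fibroblast transcript, at 730 CPM (716 to 744) in sham, 151 (133 to 169) in D2 and 161 (157 to 166) in D7. The sham library was again above both injury libraries, with ratios of 0.206 (0.182 to 0.233) and 0.221 (0.214 to 0.228). In D2, 155 of the 276 UMIs came from 3 cells. C6 was low, at 31, 0.365 and 3.7 CPM in the monocyte/macrophage-like class, which held 98.1% of C6 UMIs in sham. In the Cd163/Fcna cluster C6 stood at 41.2 CPM in sham and 83 in D7, a ratio of 2.01 (1.54 to 2.62).

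**Figure D3:**
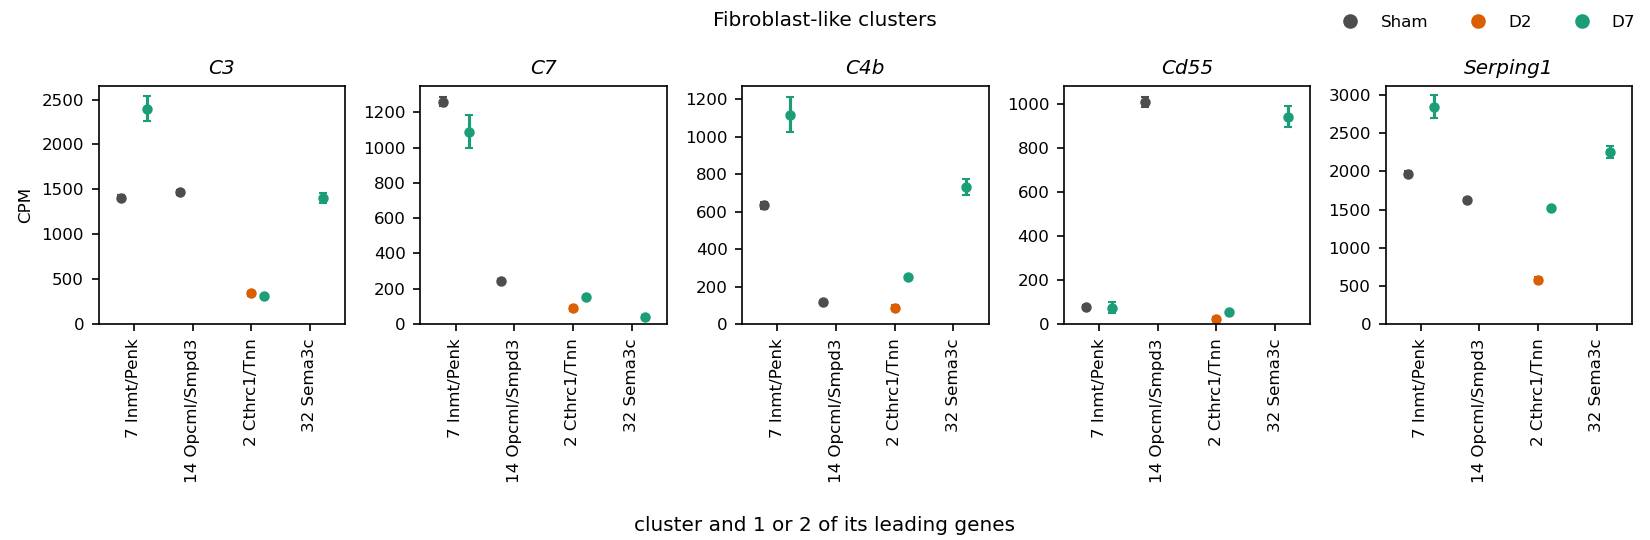
CPM of C3, C7, C4b, Cd55 and Serping1 in 4 fibroblast-like clusters (x axis, with leading genes), coloured by library; points are sums over a cluster's cells in 1 library, bars are exact Poisson 95% intervals, and a cluster is plotted for a library only where it has at least 50 cells there. In the Inmt/Penk cluster C3 is 1407 CPM in sham and 2396 in D7, while the Cthrc1/Tnn cluster, which held most injury cells, has 344 in D2 and 313 in D7.

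The fibroblast-like class was also held by different clusters in sham and after injury. In sham, 1290 cells (64.4%) were in a cluster led by Inmt and Penk and 699 (34.9%) in a cluster led by Opcml and Smpd3. In D2, 74 of 84 cells (88.1%), and in D7, 2591 cells (92.2%), were in a cluster led by Tnn and Cthrc1, the latter a gene of injury-activated fibroblasts. Only 14 sham cells were in that cluster. The class-level comparisons of sham with D2 and D7 are therefore comparisons between different clusters.

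Within the Inmt/Penk cluster, 90 D7 cells can be set beside the 1290 sham cells. C3 stood at 2396 CPM in D7 and 1407 in sham, a ratio of 1.7 (1.6 to 1.81), opposite to the class-level ratio. Cfb stood at 321 and 145, a ratio of 2.21 (1.85 to 2.62), and C4b at 1116 and 633, a ratio of 1.76 (1.61 to 1.93). C2 had a ratio of 1.67 (1.31 to 2.09), Serping1 1.44 (1.36 to 1.52) and C1s1 1.33 (1.2 to 1.47). Of these 6 genes only Cfb passed the 2-fold limit, and the intervals of the other ratios lay above 1. C7 was 0.863 (0.788 to 0.943) of sham, and for Cd55 the ratio was 0.946 (0.652 to 1.33). Of 3771 genes that reached the level in this cluster, 4.24% were apart by at least 2-fold. The C1q genes were also called there, C1qa at 7.94 CPM in sham and 95.9 in D7, beside macrophage markers in the fibroblast-like class at 85.6 CPM in sham, 316 in D2 and 339 in D7.

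Within the Cthrc1/Tnn cluster C3 stood at 344 CPM over 74 D2 cells and 313 over 2591 D7 cells. C1s1 stood at 125 and 467, a D7 to D2 ratio of 3.73 (3.27 to 4.28). C4b stood at 86 and 252, a ratio of 2.93 (2.5 to 3.47), and Serping1 at 580 and 1526, a ratio of 2.63 (2.47 to 2.8). These 3 genes passed the 2-fold limit, beside 15.1% of 3714 genes apart in this cluster. So did C2, at 3.04 (2.45 to 3.82), Colec12, at 2.36 (1.98 to 2.84), and Cd55, at 2.27 (1.66 to 3.17). C1ra, at 1.98 (1.67 to 2.38), and C7, at 1.73 (1.48 to 2.05), did not. Nor did Cr1l, at 1.13 (0.908 to 1.43), Cfb, at 1.03 (0.905 to 1.18), and C3, at 0.909 (0.838 to 0.988). A D7 cluster of 97 cells led by Sema3c had C3 at 1404 CPM, Cd55 at 941 and C7 at 38.1.

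A cluster of 1794 sham, 21 D2 and 187 D7 cells had the highest score for fibroblast markers but few UMIs per cell and was left unnamed. It had C3 at 452 CPM in sham and 1279 in D7, C2 at 252 and 321, and C7 at 588 and 431. Counting it as fibroblast-like, an alternative added after the data were seen, gave a C3 ratio to sham of 0.304 at D2 and 0.309 at D7.

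Among receptors, C3ar1 and C5ar1, the receptors of the C3a and C5a fragments, were myeloid. For C3ar1 the monocyte/macrophage-like levels were 267 CPM in sham, 404 in D2 and 248 in D7. Clusters differed in this. The Ly6c2/Chil3 cluster had C3ar1 at 2.68, 183 and 65.1 CPM, and the Cx3cr1 cluster, with 50 sham cells, 53.4, 391 and 227. The Cd163/Fcna cluster had 338 CPM in sham and 300 in D7, a ratio of 0.887 (0.781 to 1.0). C5ar1 stood at 541, 450 and 453 CPM over the whole monocyte/macrophage-like class. Neutrophil-like cells had C5ar1 at 907 CPM (834 to 984), 1383 (1367 to 1399) and 1223 (1196 to 1251). C5ar1 was thus lower in sham than in both injury libraries in neutrophil-like cells. It was higher in sham over the whole macrophage-like class, each by less than 2-fold. That order was not seen inside clusters. The Cd163/Fcna cluster had C5ar1 at 675 CPM in sham and 686 in D7, a ratio of 1.02 (0.934 to 1.1). The Cx3cr1 cluster had 29.1, 346 and 334 CPM, and the Ly6c2/Chil3 cluster 75.1, 382 and 341. Neutrophil-like cells held 54.9% of C5ar1 UMIs in D2.

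C5ar2, the second C5a receptor, stood at 98.1, 102 and 87.5 CPM in neutrophil-like cells, with overlapping intervals for sham and each injury library, and at 17.6, 24.4 and 21.2 in monocyte/macrophage-like cells. Within the Cd163/Fcna cluster C5ar2 stood at 22.3 CPM in sham and 51.6 in D7, a ratio of 2.31 (1.63 to 3.25). In endothelial-like cells C5ar1 had no UMI in sham, 50 CPM in D2 and 23.8 in D7. The 9 neutrophil markers summed to 37.3, 1076 and 348 CPM in those cells, with 5, 8 and 8 detected and Ly6g at 0 in each, and the part of neutrophil RNA in this value was not tested.

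Itgam and Itgax encode the alpha chains of complement receptors that bind fragments of C3, and Itgb2 their shared beta chain. The monocyte/macrophage-like class had Itgam at 234 CPM (222 to 246), 506 (500 to 513) and 284 (278 to 291), a D2 to sham ratio of 2.16 (2.06 to 2.28). Itgb2 stood at 197, 179 and 184 CPM, so over the class the shared chain differed little while Itgam was highest in D2. In the Ly6c2/Chil3 cluster Itgb2 stood at 424, 239 and 299 CPM, a D2 to sham ratio of 0.565 (0.509 to 0.628). Itgam stood there at 316, 508 and 360. The Cx3cr1 cluster, with 50 sham cells, had Itgb2 at 165, 174 and 158 CPM and Itgam at 146, 567 and 302. In dendritic-like cells Itgam stood at 44.8, 151 and 77.7 CPM, and Itgax at 47.2, 96.9 and 94.9, with D2 to sham ratios of 3.37 (2.68 to 4.29) and 2.06 (1.64 to 2.61). T/NK/ILC-like cells, which use the beta chain in other integrins, had Itgb2 at 223, 139 and 111 CPM. In neutrophil-like cells Itgax stood at 30.1, 49.4 and 120 CPM, highest in D7, with a D7 to sham ratio of 3.98 (2.53 to 6.65). In the Retnlg cluster, which held most sham cells of this class, Itgax stood at 23.5, 39.0 and 57.6 CPM. The D7 to sham ratio there was 2.45 (1.34 to 4.84). The D7 to D2 ratio was 1.48 (1.04 to 2.1) there and 2.53, 2.88 and 4.19 in the other neutrophil-like clusters. Itgam in neutrophil-like cells was 467, 440 and 453 CPM, with intervals that overlap.

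Cd93, a membrane protein first described as a C1q receptor and prominent in endothelium, stood at 522 CPM (490 to 555), 463 (428 to 500) and 553 (526 to 582) in endothelial-like cells. Its monocyte/macrophage-like level was 103 CPM (95.4 to 111), 312 (308 to 317) and 151 (146 to 156), ratios of 3.03 (2.81 to 3.28) for D2 to sham and 0.484 (0.467 to 0.501) for D7 to D2. Endothelial-like levels differed little between libraries, while the macrophage level was highest in D2. The class holding most Cd93 UMIs was endothelial-like in sham (51.3%) and monocyte/macrophage-like in D2 (92.2%).

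Cr2, the receptor for C3 fragments on B cells, had B-like levels of 97.9, 88.1 and 86.8 CPM, and B-like cells held 81.8%, 83.4% and 82.2% of the Cr2 UMIs. Its level and its class were alike in all 3 libraries. Vsig4, a macrophage receptor for C3b, stood at 24.7, 4.01 and 3.62 CPM in monocyte/macrophage-like cells, and 98.2% of sham Vsig4 UMIs were in that class. In the Cd163/Fcna cluster Vsig4 stood at 32.9 CPM in sham and 59.7 in D7, a ratio of 1.82 (1.32 to 2.46), so its class-level order was reversed within that cluster.

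**Figure D4:**
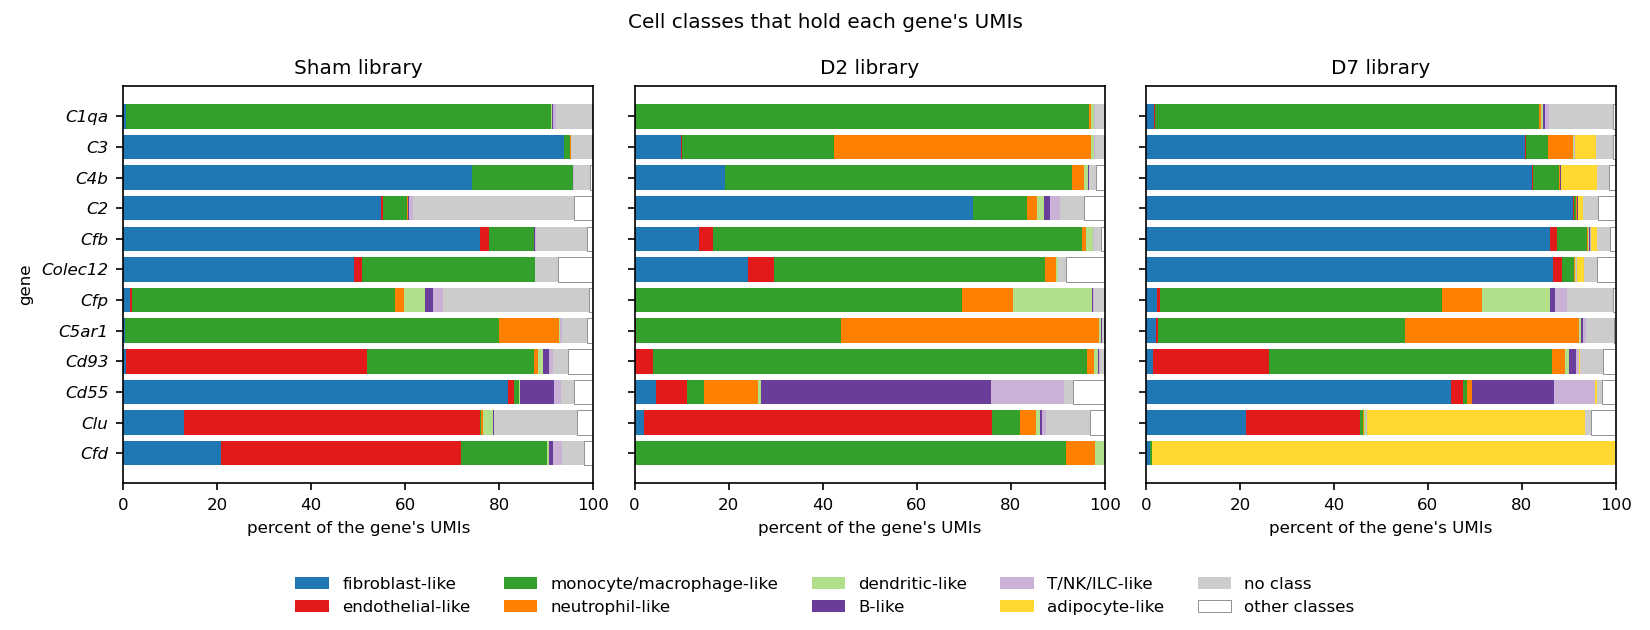
Percent of each gene's UMIs (x axis) held by each cell class (colours) in the sham, D2 and D7 libraries (panels), for 12 of the genes. C3 is held by fibroblast-like cells in sham (93.7%) and D7 (80.7%) and by neutrophil-like cells in D2 (54.8%), and Cfd by adipocyte-like cells in D7 (98.5%).

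Of the regulators, Serping1, which encodes the C1 inhibitor, stood at 1788 CPM (1766 to 1810) in sham, 648 (612 to 686) in D2 and 1578 (1565 to 1591) in D7 in fibroblast-like cells. D2 was lowest and D7 close to sham, with ratios of 0.363 (0.342 to 0.384) and 0.883. Smooth muscle-like cells had 334 CPM in sham and 559 in D7, and lymphatic endothelial-like cells 145 and 234. In endothelial-like cells it stood at 35.7, 33.1 and 74.4 CPM, a D7 to sham ratio of 2.08 (1.58 to 2.79). That ratio was 0.794 after an estimate of free RNA was subtracted, so its direction depends on that step. The endothelial-like cluster led by Vwf held 23.9% of the class in sham and 33.5% in D7. Without that subtraction Serping1 stood there at 107 CPM in sham and 271 in D7, a ratio of 2.53 (1.76 to 3.7).

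Cd55, or decay-accelerating factor, dismantles convertases on host cells. In fibroblast-like cells it stood at 555 CPM (543 to 567) in sham, 22.4 (16.1 to 30.3) in D2 and 104 (101 to 107) in D7, 24.8-fold lower at D2 and 5.34-fold lower at D7. The D2 value rests on 41 UMIs. Cd55 was a transcript of the cluster led by Opcml and Smpd3 in sham, at 1006 CPM over 699 cells, beside 77.2 CPM over the 1290 Inmt/Penk cells. In D7, the 32 cells of that cluster had 1395 CPM, the Sema3c cluster 941 and the Cthrc1/Tnn cluster 52.9. Cd55 was thus highest in 2 of the clusters, which held 1.14% and 3.45% of the D7 class.

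Outside fibroblasts, B-like levels of Cd55 were 588, 237 and 341 CPM, a D2 to sham ratio of 0.403 (0.357 to 0.455). In T/NK/ILC-like cells it stood at 43, 61.9 and 94 CPM, a D7 to sham ratio of 2.19 (1.82 to 2.63), opposite to fibroblast-like cells. The T/NK/ILC-like cluster led by Lef1 held 21.2% of the class in sham and 49.4% in D7, and within it Cd55 stood at 105 CPM in sham and 133 in D7, a ratio of 1.27 (1.01 to 1.61). Endothelial-like cells had 66, 40.8 and 57 CPM, and 74 sham mast/basophil-like cells had 445 CPM.

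Clu encodes clusterin, which restrains the terminal complex. In endothelial-like cells it stood at 464 CPM (433 to 496) in sham, 211 (188 to 236) in D2 and 267 (248 to 287) in D7. The D2 to sham ratio was 0.455 (0.398 to 0.52). The adipocyte-like cells, found in D7 alone, had a higher Clu level than the endothelial-like cells of that library, as given above. The order of the libraries differed between endothelial-like clusters. The cluster led by Ccdc85a and Aplnr had Clu at 86.5, 158 and 163 CPM, lowest in sham. The cluster led by Vwf had 626 CPM over 112 sham cells and 489 over 132 D7 cells, a ratio of 0.782 (0.649 to 0.941). The cluster led by Gkn3 and Gja5, genes of arterial endothelium, had 2510 CPM over 39 sham cells and 512 over 26 D7 cells, with 2 cells in D2. In lymphatic endothelial-like cells Clu stood at 17.7 CPM in sham and 100 in D7, a ratio of 5.67 (3.68 to 8.98).

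Cd59a, which blocks the last step of pore formation, stood at 84.1, 81.7 and 67.9 CPM in endothelial-like cells, and at 889 CPM over 50 sham and 460 over 41 D7 Schwann-like cells. Cd46, an inhibitor of limited range in mouse tissues, reached 49 CPM at most in neutrophil-like cells, at 49, 27.3 and 17.8 CPM. Cr1l, which encodes Crry, the broad convertase inhibitor of rodent cells, stood between 39 and 142 CPM in each class of at least 50 cells. It was found in all those classes, with fibroblast-like values of 86.2, 54.6 and 54.3 CPM and monocyte/macrophage-like values of 70.1, 67.2 and 59.4.

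Counted over the list, 11 of the 31 genes reached 50 CPM and 20 UMIs for the D2 to sham comparison in fibroblast-like cells. Of these, 7 (C1ra, C1s1, C4b, C3, C7, Serping1 and Cd55) were lower in D2 and none was higher, with a median log2 ratio of -1.64. Over all 4090 genes that reached the level, 31.9% were apart in either direction, 16.6% were lower in D2, and the median was 0.05. A stricter cell filter gave 3 lower (C1s1, C7, Cd55) and 3 higher (C1qa, C1qb, Cfb) of 13 genes, and the mean of per-cell CPM gave 4 lower and 2 higher of 12. In D7 against sham, C2 was higher and C3, C7 and Cd55 were lower among 11, with a median of -0.34, beside 7.95% higher and 11.4% lower (19.3% in all) of 3838 genes and a median of -0.07. In D7 against D2, C1s1, C2, C4b, Colec12, Serping1 and Cd55 were higher and none lower, among 11, beside 13.2% of 3731 genes apart and 6.7% higher. The 2 injury comparisons share the sham library, and genes that reached the level only through a high library had to differ, so these counts describe the list and nothing more.

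In monocyte/macrophage-like cells 12 genes reached the level in D2 against sham, and Itgam and Cd93 were higher and C4b and Colec12 lower, beside 5.51% higher and 7.66% lower (13.2% in all) of 3813 genes. In D7 against sham, C4b and Colec12 of 12 were lower and none was higher, beside 16.5% of 3792 genes apart and 9.41% lower. In D7 against D2, Cd93 of 10 was lower, beside 2.03% of 3502 genes apart and 0.514% lower. The list's share of genes apart was close to that of all genes in D7 against sham. These counts against sham set different clusters side by side. Within the Ly6c2/Chil3 cluster C1qa, C1qb, C1qc, Cfp, C3ar1, C5ar1 and Cd93 were higher in D7 than in sham. No gene of the list was lower there, beside 13.9% of all genes apart. The Cx3cr1 cluster, with 50 sham cells, had these and Itgam higher and none lower, beside 19.1% apart. The Cd163/Fcna cluster had Cfb and C5ar2 higher and Colec12 lower, beside 4.82% apart.

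In endothelial-like cells Clu and Cfd of 6 were lower in D2 than in sham, beside 20.7% of 4228 genes apart and 10.5% lower. In D7 against sham Serping1 of 8 was higher and Cfd lower, beside 5.84% higher and 6.54% lower (12.4% in all) of 4177 genes. In D7 against D2, Colec12 and Serping1 of 7 were higher, beside 3.25% of genes apart and 2.25% higher. Smooth muscle-like cells had C1qa, C1qb and Colec12 of 9 higher in D7 than in sham, beside 18.5% of genes apart and 10.2% higher. Lymphatic endothelial-like cells had C1qb and Clu of 6 higher, beside 8.53% apart and 4.24% higher. The macrophage markers summed to 617 CPM in sham and 569 in D7 in smooth muscle-like cells and to 202 and 732 in lymphatic endothelial-like cells. The macrophage gene Csf1r stood at 5.03 and 18.3 CPM in the former and 3.16 and 16.0 in the latter. The part of macrophage RNA in the C1q calls was not tested.

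In neutrophil-like cells C3 of 7 was higher in D2 than in sham, beside 28.3% of genes apart and 20% higher. Itgax of 8 was higher in D7 than in sham, beside 28.8% apart and 20.5% higher, and higher in D7 than in D2, beside 3.43% apart and 2.32% higher. In dendritic-like cells C1qa, C1qb, Cfp, Itgam and Itgax of 7 were higher in D2 than in sham, beside 13.3% apart and 8.47% higher, and C1qb and Cfp of 5 in D7 than in sham, beside 9.45% apart and 6.24% higher. No gene of 7 was apart between D7 and D2 there, beside 1.92%. Dendritic-like cells carried macrophage markers at a sum of 1781, 1649 and 1570 CPM, highest in sham. The macrophage gene Csf1r stood at 11.1, 91.9 and 57.8 CPM in these cells. Csf1r, C1qa and C1qb were thus lowest in sham, unlike the marker sum. The part of macrophage RNA in these C1q calls was not tested.

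In T/NK/ILC-like cells no gene of 4 was apart between D2 and sham, beside 5.47% of genes, while C1qa, C1qb, C1qc and Cd55 of 7 were higher in D7 than in sham, beside 5.35% apart and 2.58% higher. Within the Lef1 cluster the D7 to sham ratios were 0.642 (0.515 to 0.804) for C1qa, 0.999 (0.79 to 1.27) for C1qb and 0.685 (0.513 to 0.922) for C1qc. None of the chains was higher in D7 there. Other clusters went the other way, at levels under 50 CPM. The cluster led by Gzma had ratios of 5.02 (2.1 to 14.6), 4.06 (1.77 to 10.9) and 5.35 (2.07 to 17.6). The cluster led by Gimap7 had 4.32 (2.06 to 10.1) for C1qa and 1.74 (0.979 to 3.19) for C1qb. In sham, 3 cells held 113 of the class's 139 C1qa UMIs. C1qc of 6 was higher in D7 than in D2, beside 0.893% apart and 0.73% higher. In B-like cells Cd55 of 3 was lower in D2 than in sham, beside 6.58% apart and 2.97% lower. The 3 C1q genes of 6 were higher in D7 than in sham, beside 6.01% apart and 3.72% higher, and higher in D7 than in D2, beside 1.43% apart and 1.27% higher.

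**Figure D5:**
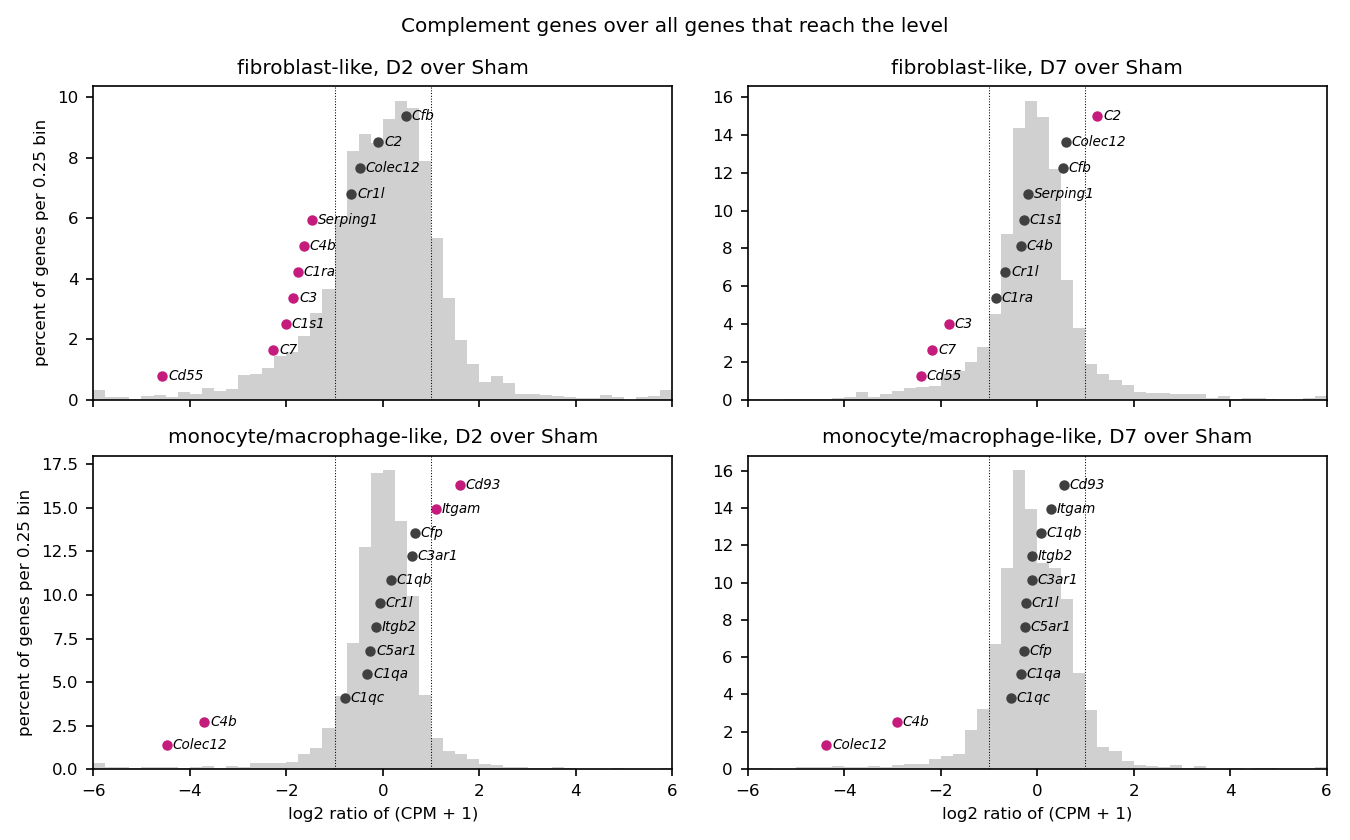
Log2 ratio of (CPM + 1) for 4 class comparisons (panels); grey bars give the percent of all genes that reach the level in each bin of 0.25, and labelled points are complement genes, placed at arbitrary heights and coloured where the ratio is at least 2-fold (dotted lines). In fibroblast-like cells 7 of 11 genes lie beyond the left line in D2 over sham.

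Of the whole list, 26 of 31 genes reached 50 CPM in at least 1 class. Another 31 complement genes outside it were looked up, and 30 were found, 4 of them with no UMI in any library and 8 reaching 50 CPM in a class. Fcna, a ficolin of the lectin route, stood at 203, 4.12 and 9.9 CPM in monocyte/macrophage-like cells. Cfi, the protease that degrades C3b, had no UMI in sham or D2 fibroblast-like cells and 904 UMIs in D7, in 491 cells or 17.5% of the class, at 23.9 CPM. That was at least 113-fold higher than sham when the sham class is set at 3 UMIs. Among these other genes, in fibroblast-like cells, 1 of the 4 that reached the level was higher in D2 than in sham, none of 4 was apart in D7 against sham, and Ptx3 and C1qbp of 4 were lower in D7 than in D2, beside 31.9%, 19.3% and 13.2% of all genes apart in these comparisons. Ptx3, a soluble pattern receptor that binds C1q, stood at 119, 187 and 61.1 CPM there. C1qbp, a C1q-binding protein of mitochondria, was at 44.1, 171 and 71.6 CPM there, and Csmd1, a membrane regulator, at 442, 373 and 410.

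Several members have a close copy in the mouse genome. The copies had few UMIs per library next to the members, with C1rb at 0, 0 and 12 UMIs, C1s2 at 8, 1 and 61, C4a at 11, 10 and 18, Cd59b at 92, 67 and 246 and Cd55b at 53, 10 and 18 in sham, D2 and D7. How reads were shared between copies was not tested, so C1ra, C1s1, C4b, Cd59a and Cd55 are the sum that the submitters' counting assigned to those symbols. C4b, Cfb and C2 lie within chr17:34728380-34898265, with Cfb ending at 34862518 and C2 starting at 34862604, so reads near that border can be hard to assign to one gene.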

How the data were processed

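Raw UMI counts for 3 libraries (Chromium 3' v3) were used as deposited. The submitters' processing notes list Cell Ranger 7.2.0, Seurat 5.0.1 and mm10, while the matrix header names Cell Ranger 7.1.0. Whether intronic reads and strand were used is not given in the sources used here. Cells passed with 300 or more genes, 500 or more UMIs and a mitochondrial share up to 15% (306 sham, 217 D2 and 363 D7 barcodes removed). Scrublet in scanpy removed 105 (1.41%), 472 (4.11%) and 228 (2.03%) called doublets. Its automatic threshold failed in sham, and the mean threshold of the other libraries was used. Cells were clustered with scanpy 1.11.5 (2000 variable genes, 30 components, 15 neighbours, Leiden resolution 1) and clusters were named from listed markers, needing at least 3. A cluster with few UMIs and none of its markers among its leading genes stayed unnamed. Counts were summed per class and library and scaled to CPM.

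The 31 genes, the other gene lists and the markers were chosen with earlier results of these data known. Every member is accounted for, by role, with values where a class held at least 50 CPM or most of its UMIs. Gene coordinates are GENCODE M21 on GRCm38 and promoters are RefSeq. The alternatives tried were Leiden resolution, cell filter, doublets left in, mean per-cell CPM, free RNA subtracted, the level threshold and the fold threshold. On simulated counts for fibroblast-like cells of D7 over sham, the threshold recovered 100% of 200 genes made 4-fold different, with 3402 genes reaching the level. Those 200 were drawn from well-expressed genes and only counting error was simulated. The check therefore covers neither genes near the level threshold nor the spread between cells or mice. Python 3.11.15, numpy 2.4.6 and scipy 1.17.1 were used. Each library gives counting precision only. Values of some listed genes are not reported here.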

Additional observations from a re-analysis of the deposited data

Results flagged for a closer look

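For 3 genes the level was at least 2-fold higher in one cell class and at least 2-fold lower in another under the same comparison of libraries. Each group is 1 library, so the differences between classes were not tested. C3 had a D2 to sham ratio of 0.278 in fibroblast-like cells and 2.38 in neutrophil-like cells. Inside the neutrophil-like cluster led by Retnlg the C3 ratio was 1.78 (1.29 to 2.52). Cd55 had a D7 to sham ratio of 0.187 in fibroblast-like cells and 2.19 in T/NK/ILC-like cells. Inside the Inmt/Penk cluster the Cd55 ratio was 0.946 (0.652 to 1.33), and inside the Lef1 cluster it was 1.27 (1.01 to 1.61). These class-level values also mix clusters of different share in each library. Colec12 had a D7 to sham ratio of 4.7 in smooth muscle-like cells, where the sham value rests on few UMIs, and 0.0429 in monocyte/macrophage-like cells.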

How the results depend on the processing

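Each group is 1 library, so no replicate could be left out. No paired analysis was possible because each group has 1 library. Of 116 values for 18 single genes, 115 kept their direction under the alternatives tried. The exception was Serping1 in endothelial-like cells, D7 over sham, at 0.794 with free RNA subtracted. No direction turned in 82 summary values. Leaving out shallow clusters removed no named cells and changed nothing.

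Counts of complement genes apart moved by over 1.5 times as follows, and the cause was not tested beyond the number of genes each threshold admits. With no filter on level, fibroblast-like cells gave 18 in D2 over sham (7 as reported) and 13 in D7 over sham (4), monocyte/macrophage-like cells 13 in D2 over sham (4), 11 in D7 over sham (2) and 5 in D7 over D2 (1), and endothelial-like cells 16 in D7 over sham (2). At 20 CPM and 10 UMIs the counts were 7 in fibroblast-like D7 over sham, 5 in monocyte/macrophage-like D7 over sham, 2 in D7 over D2 and 8 in endothelial-like D7 over sham. At 1.5-fold they were 7 in fibroblast-like D7 over sham, 7 in monocyte/macrophage-like D2 over sham, 4 in D7 over D2 and 4 in endothelial-like D7 over sham. Monocyte/macrophage-like D7 over D2 gave 0 with a stricter cell filter and 2 with mean per-cell CPM. Endothelial-like D7 over sham gave 1 with free RNA subtracted.

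The C3 ratio in fibroblast-like cells, D2 over sham, was 0.537 with a stricter filter, 0.303 with doublets left in, 0.553 with mean per-cell CPM and 0.304 with the unnamed fibroblast-scoring cluster added, an alternative chosen after seeing the data. For D7 over sham it was 0.298, 0.307, 0.445 and 0.309. The C1q ratio in monocyte/macrophage-like cells was 0.762 in D2 over sham and 0.78 in D7 over sham at resolution 2, 0.847 and 0.776 with mean per-cell CPM, and 0.838 in D2 over sham with free RNA subtracted. With the unnamed cluster added the fibroblast-like D7 count was 3, as C2 was no longer apart. The 84 D2 fibroblast-like cells limit the values there, and the spread between mice cannot be measured.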
